A study of Homo sapiens with 8 samples.

Results

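The genes of nuclear transport and of the nuclear pore were followed through the NF-Y peak lists of RH4 and RH30 cells. Members were the protein-coding genes named as karyopherins and importins (KPNA, KPNB, IPO, TNPO), exportins (XPO, and CSE1L), Ran and its partners (RAN, RANBP, RANGAP1) or nucleoporins (NUP, and TPR). This naming rule gave 58 of the 20037 protein-coding genes placed on chromosomes in the RefSeq table. They comprised 18 importins, 7 exportins, 9 genes of the Ran cycle and 24 pore genes, grouped by name alone. A gene was counted as having a peak in a list when at least 1 base of a peak fell within 1000 bp of its lower or higher end on hg38. The gene group was proposed with results of these same lists known, so its counts are a description and carry no test.

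CUT&RUN cuts and recovers the DNA next to a protein that an antibody marks. It was applied to 2 established rhabdomyosarcoma lines whose genotype is given as PAX3-FOXO1+. Uninfected, untreated RH4 cells gave 1 library each for NFYB and NFYC. RH30 cells engineered to express an inducible cytosine base editor all received a guide RNA, blasticidin selection and then rapamycin, and are titled day 8. They carried the control guide sgCtrl1 or sgCtrl2, or 1 of the guides sgCCAAT2a and sgCCAAT2b, aimed at a CCAAT motif in the endogenous PAX3 promoter, and each guide gave 1 NFYB library. The libraries of the CCAAT guides are called edited here, although editing itself was not analysed, and the labels do not say whether cells of a guide were a clone. The 5 libraries titled RH30 name RH4 as their source and are called RH30 after their titles. The 2 IgG libraries were not analysed here. No guide or antibody has a replicate, so differences between lists have no replicate check.

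The RH30 lists held 4025 (sgCtrl1), 6687 (sgCtrl2), 2451 (sgCCAAT2a) and 2558 (sgCCAAT2b) peaks from 13.9, 10.5, 21.2 and 28.2 M tags, and those of RH4 3243 for NFYB and 3760 for NFYC, at unknown depth. Peaks took in 2.40% (sgCtrl1), 3.10% (sgCtrl2), 1.22% (sgCCAAT2a) and 1.46% (sgCCAAT2b) of the tags. PAX3, the gene the CCAAT guides target, had a peak at an end in both RH4 lists and both control lists and in neither edited list.

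Proteins too large to diffuse pass the nuclear envelope through pores, bound to transport receptors. In classical import, an importin alpha (KPNA genes) reads the nuclear localisation signal of a cargo and importin beta (KPNB1) carries the pair through the pore. Binding of Ran-GTP releases the cargo inside the nucleus, CSE1L returns importin alpha to the cytoplasm, and XPO1 exports proteins with a leucine-rich export signal. NF-Y, a trimer of NFYA, NFYB and NFYC, binds the sequence CCAAT, most often close upstream of a transcription start, and is known at promoters of growth and cell cycle genes.

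Promoter sequences show what NF-Y could read at these genes. RefSeq promoters of GRCh38.p14, each running from 250 bases before to 50 after the annotated start, were matched by symbol for 51 of the 58 members. The members with no entry were KPNA4, KPNA5, KPNA7, KPNB1, XPO7, RANBP1 and NUP43. The first set holds members whose peaks are described below, followed by IPO5 and IPO9, which have the motif and no peak in any list. All are printed in the direction of the gene, with CCAAT, or ATTGG where the motif lies on the other strand, in capitals. The stretches of KPNA2, CSE1L, NUP37 and IPO9 end at the last base before the start, that of TPR ends 36 bases before it, and that of IPO5 ends 86 bases before it.
KPNA2 (chr17:68035626-68035734, plus strand): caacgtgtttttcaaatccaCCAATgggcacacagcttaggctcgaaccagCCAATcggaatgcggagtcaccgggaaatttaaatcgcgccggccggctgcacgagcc
CSE1L (chr20:49046199-49046311, plus strand): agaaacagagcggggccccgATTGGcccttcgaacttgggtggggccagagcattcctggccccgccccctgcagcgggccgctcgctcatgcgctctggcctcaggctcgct
NUP37 (chr12:102120115-102120182, minus strand): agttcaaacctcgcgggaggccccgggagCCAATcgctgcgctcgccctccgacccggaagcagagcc
TPR (chr1:186375289-186375438, minus strand): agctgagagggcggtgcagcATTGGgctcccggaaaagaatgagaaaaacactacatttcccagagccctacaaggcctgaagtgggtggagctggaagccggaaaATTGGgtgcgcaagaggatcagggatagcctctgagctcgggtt
IPO5 (chr13:97953440-97953589, plus strand): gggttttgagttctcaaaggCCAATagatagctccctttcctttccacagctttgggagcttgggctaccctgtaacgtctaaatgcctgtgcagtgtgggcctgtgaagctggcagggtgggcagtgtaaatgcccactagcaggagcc
IPO9 (chr1:201829057-201829156, plus strand): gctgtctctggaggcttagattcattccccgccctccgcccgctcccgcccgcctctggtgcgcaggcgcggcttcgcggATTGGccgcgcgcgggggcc
KPNA2 shows a pair of CCAAT cores, whereas CSE1L and NUP37 show 1 each, and IPO9 carries a single core as well.

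The second set shows further cores in their context of 10 bases either side, each turned to read CCAAT, with its centre counted from the RefSeq start. XPO1, NUP88 and NUP98 had a peak in all 6 lists, RANBP10 and NUP214 in the 4 lists other than the edited ones, and TNPO1, XPO4 and KPNA6 in none.
XPO1 at -73 (chr2:61538417-61538441, minus strand): ggcgctcgggCCAATgagagatagg
XPO1 at -30 (chr2:61538374-61538398, minus strand): ctggaactgaCCAATaggagggcgg
NUP88 at -176 (chr17:5419826-5419850, plus strand): caagggaaagCCAATcaccattatt
NUP88 at -75 (chr17:5419725-5419749, plus strand): actgtttcggCCAATcaccgagcag
NUP88 at -44 (chr17:5419694-5419718, plus strand): ctgagcacagCCAATccgcggccgt
NUP98 at -112 (chr11:3797646-3797670, minus strand): gacgcgttgcCCAATgaataacagg
NUP98 at -70 (chr11:3797604-3797628, minus strand): gccgcgtccaCCAATtcgcggacgg
RANBP10 at -45 (chr16:67806593-67806617, plus strand): ccccgctcagCCAATggcccgtgag
NUP214 at -94 (chr9:131125480-131125504, plus strand): cccgagctggCCAATggggagcggc
TNPO1 at -37 (chr5:72816612-72816636, plus strand): cgccccccggCCAATcggaccggcg
XPO4 at -24 (chr13:20902786-20902810, plus strand): ccgcggccggCCAATcgccgccgcg
KPNA6 at -72 (chr1:32107972-32107996, minus strand): ctttattggcCCAATcgcctatcat
The last 3, from genes with no peak, continue after CCAAT with CG, as do the KPNA2 core nearer the start and the cores of CSE1L and NUP37, which lie at genes with a peak in every list. These 3 are the only cores with CG among the 13 at members with no peak, so they do not stand for the others. KPNA6 has another core, at -66, that continues with AA and is not printed. The sequence CCAATCG on either strand thus occurred in 3 of 6 members with a peak in all lists (KPNA2, CSE1L and NUP37) and 3 of 33 with none (KPNA6, TNPO1 and XPO4). Over all protein-coding promoters the shares were 20.2% and 1.84%. It was searched after the sequences had been seen, and it overlaps CCAAT. It was found in 6 of the 51 member promoters and in 4.32% of the 15842 protein-coding promoters.

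A small set of transport and pore genes had an NF-Y peak in every library. Peaks in all 6 lists lay at KPNB1 (importin beta), KPNA2 and KPNA4 (importin alpha adapters), CSE1L (the exportin of importin alpha), XPO1 (the main protein exportin), and the pore genes NUP37, NUP88 and NUP98. These are 8 of the 58 members (13.8%), where 7.03% of all protein-coding genes had a peak in all 6 lists. At least 1 list held a peak for 20 members (34.5%), against 21.7% of all protein-coding genes. The other 38 members had no peak in any list, among them RAN itself. Without the sgCtrl2 list, the longest, 16 of the 58 members had a peak in at least 1 list, beside 3621 of the 20037 protein-coding genes.

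**Figure D1:**
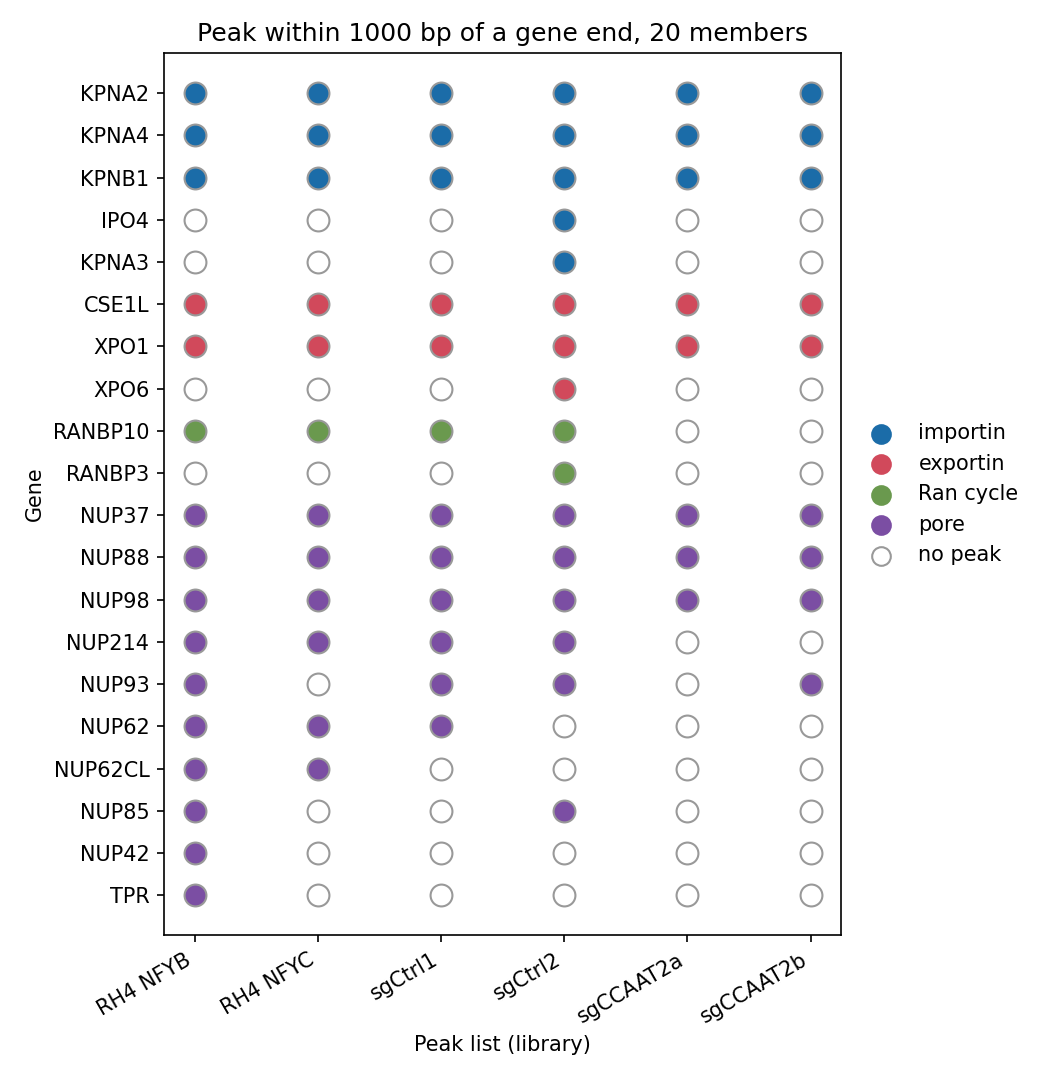
Presence of a peak within 1000 bp of a gene end for the 20 members with a peak in at least 1 list (rows) in the 6 lists (columns). Filled circles, coloured by role, mark a peak. KPNA2, KPNA4, KPNB1, CSE1L, XPO1, NUP37, NUP88 and NUP98 are filled in all 6 columns, and IPO4, KPNA3, XPO6 and RANBP3 in the sgCtrl2 column alone.

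In RH4, 16 members had an NFYB peak (27.6%, 95% exact interval 16.7 to 40.9%) and 12 an NFYC peak (20.7%, 11.2 to 33.4%). The background over all protein-coding genes was 15.0% for NFYB and 15.3% for NFYC. In RH30, 12 members had a peak with sgCtrl1 (20.7%, 11.2 to 33.4%, background 12.6%) and 16 with sgCtrl2 (27.6%, 16.7 to 40.9%, background 16.8%). With sgCCAAT2a there were 8 (13.8%, 6.15 to 25.4%, background 8.90%) and with sgCCAAT2b 9 (15.5%, 7.35 to 27.4%, background 9.27%). The members' share was above the background in each list, and no test was made of this. Intervals are exact Clopper-Pearson intervals and cover counting error only. The 6 lists are not independent views of the members, since peaks at the same 8 genes make up a large part of every count.

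**Figure D2:**
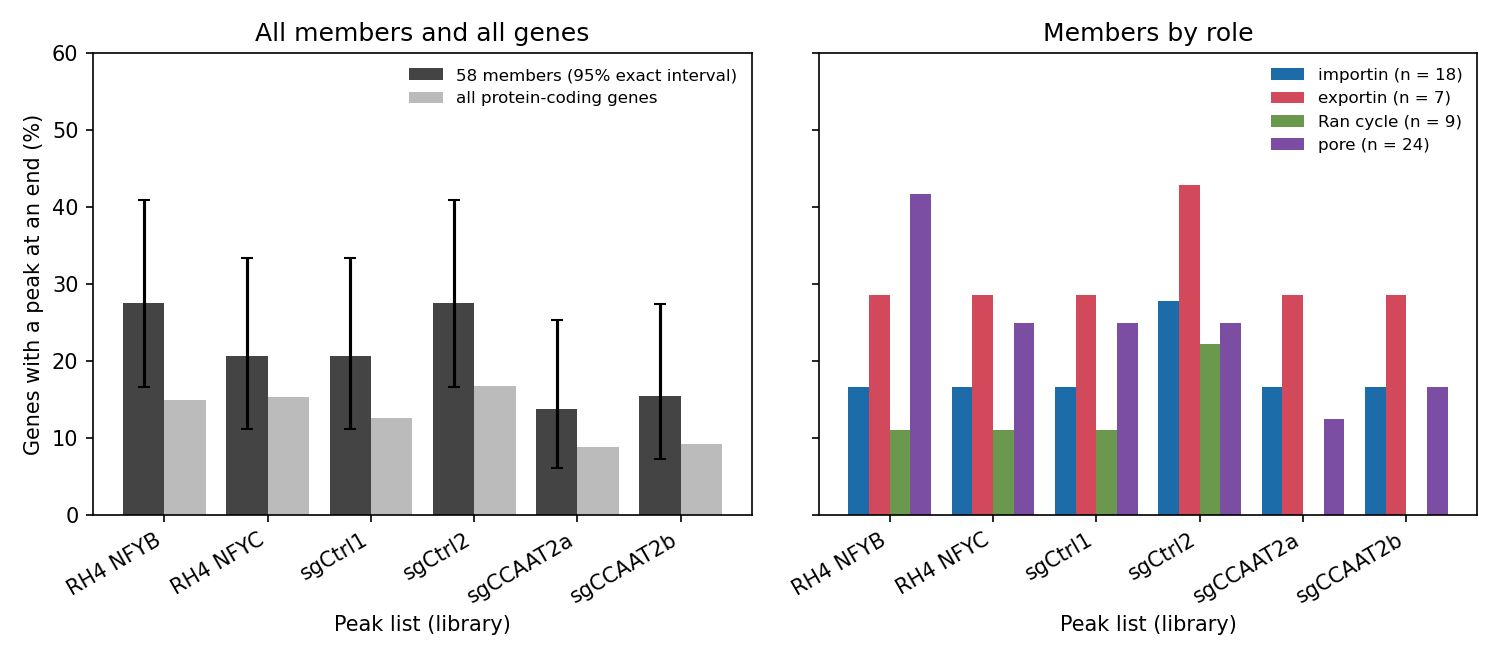
Left: percent of the 58 members (dark, with 95% exact intervals) and of all protein-coding genes (light) with a peak at an end, by list. Right: the same percent for members by role. Importins stay at 3 of 18 genes in each list except sgCtrl2, which has 5, whereas pore genes range from 10 of 24 in RH4 NFYB to 3 of 24 in sgCCAAT2a.

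Most importins had no peak in any list, as did most protein-coding genes. Of the 18 importins, 13 had none (72.2%, background 78.3%) and 3 had a peak in all 6 lists (16.7%, background 7.03%). KPNA2, KPNA4 and KPNB1 had a peak in each list, and these 3 of 18 importins were the whole count in every list except sgCtrl2. That list also held peaks at KPNA3, another importin alpha gene, and IPO4, a carrier of histones. No list had a peak at KPNA1, KPNA5, KPNA6 or KPNA7, nor at IPO5, IPO7, IPO8, IPO9, IPO11 and IPO13. The transportins TNPO1, which carries RNA-binding proteins, TNPO2, and TNPO3, which carries splicing factors, also had none.

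At KPNB1 the peaks were centred outside the lower end of the gene, with 1 exception given below. KPNB1 occupies 47649919 to 47685505 on chromosome 17. The RH4 NFYB peak ran from 47649384 to 47649956 (573 bp) and the main NFYC peak from 47649397 to 47649914 (518 bp). NFYC had a further peak of 118 bp at 47650611 to 47650728, inside the gene. In RH30 the peak ran from 47649619 to 47649807 with sgCtrl1 and from 47649618 to 47649814 with sgCtrl2. It ran from 47649637 to 47649789 with sgCCAAT2a and from 47649635 to 47649797 with sgCCAAT2b. The 4 RH30 centres thus stood 203 to 206 bp outside the gene end, so controls and edited libraries differed by 3 bp at most. In file order the KPNB1 peak was entry 9 of 4025, 6 of 6687, 48 of 2451 and 37 of 2558 for sgCtrl1, sgCtrl2, sgCCAAT2a and sgCCAAT2b, the earliest of all members in each list.

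KPNA2 spans positions 68035735 to 68046854 of chromosome 17 and starts at the lower coordinate. Both RH4 peaks were 471 bp wide, at 68035447 to 68035917 for NFYB and 68035372 to 68035842 for NFYC. The RH30 peaks ran from 68035604 to 68035792 (sgCtrl1), 68035634 to 68035830 (sgCtrl2), 68035621 to 68035773 (sgCCAAT2a) and 68035603 to 68035765 (sgCCAAT2b). Both CCAAT cores printed above lay inside all 6 peaks, with centres at -87 and -56 bp from the start, 31 bp apart. At KPNA4, which has no promoter entry, the centres lay 51 to 79 bp outside the higher end of the gene in all 6 lists.

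Of the 7 exportins, 4 had no peak in any list (57.1%, background 78.3%) and 2 had one in all 6 (28.6%, background 7.03%). CSE1L and XPO1 had a peak in all 6 lists and XPO6, the exporter of actin with profilin, in sgCtrl2 alone. XPO4, XPO5 (precursor microRNAs), XPO7 and XPOT (transfer RNAs) had none, and the closest peak in any list stood 107999, 89872, 102772 and 1801677 bp from an end of these genes.

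XPO1 lies on chromosome 2 at 61477849 to 61538612 on the minus strand, and its RefSeq start used here, 61538356, falls inside that span. The RH4 peaks were wide, 61538140 to 61538934 (795 bp) for NFYB and 61538257 to 61538849 (593 bp) for NFYC. Control peaks in RH30 covered 61538335 to 61538523 (sgCtrl1) and 61538332 to 61538528 (sgCtrl2). Those of the edited libraries covered 61538318 to 61538470 (sgCCAAT2a) and 61538349 to 61538511 (sgCCAAT2b). Both XPO1 cores, 43 bp apart, lay inside all 6 peaks. The nearer core stood 0, 1, 8 and 1 bp from the peak centre in sgCtrl1, sgCtrl2, sgCCAAT2a and sgCCAAT2b.

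CSE1L lies on chromosome 20 at 49046312 to 49096949, and its RH4 and sgCtrl2 peaks were centred inside the gene. The RH4 NFYB peak ran from 49046132 to 49046943, at 812 bp the widest of any member, and the NFYC peak from 49046171 to 49046850 (680 bp). With sgCtrl1, 1 peak lay at 49046211 to 49046399 and another at 49046601 to 49046789, centred 383 bp inside the gene. The other lists held 1 peak each, at 49046273 to 49046469 (sgCtrl2), 49046201 to 49046353 (sgCCAAT2a) and 49046169 to 49046331 (sgCCAAT2b). The single core of the promoter lay inside a peak of 5 lists and outside that of sgCtrl2.

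The 9 members named RAN, RANBP or RANGAP1 are called Ran cycle here by name alone, whatever their role. Of these, 2 had a peak in at least 1 list (22.2%), near the background of 21.7%. RAN, the GTPase that gives transport its direction, RANGAP1, its activating protein, and RANBP1 and RANBP2, which assist RANGAP1 on the cytoplasmic side, had no peak in any list, nor had RANBP6, RANBP9 and RANBP17. The closest peak to an end of RAN stood 286564 bp away, in RH4 NFYC, and the closest to RANGAP1 15924 bp away, in sgCtrl2. RANBP3, a cofactor of XPO1, had a peak in sgCtrl2 alone, at 5978167 to 5978363 of chromosome 19. RANBP10, a relative of the scaffold protein RANBP9, had a peak in both RH4 and both control lists.

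The pore genes with a peak numbered 10 of 24 in RH4 NFYB, 6 each in RH4 NFYC, sgCtrl1 and sgCtrl2, 3 with sgCCAAT2a and 4 with sgCCAAT2b. The backgrounds over all protein-coding genes were 15.0% (RH4 NFYB), 15.3% (RH4 NFYC), 12.6% (sgCtrl1), 16.8% (sgCtrl2), 8.90% (sgCCAAT2a) and 9.27% (sgCCAAT2b). At least 1 list held a peak for 10 of the 24 (41.7%, background 21.7%), and all 6 lists for 3 (12.5%, background 7.03%). The part of the RH4 lists with the widest peaks held 3 pore genes for NFYB and 3 for NFYC, although width is not a score. NUP37 and NUP98 of the outer Y complex and NUP88 of the cytoplasmic side were present throughout. The NUP98 gene encodes both the mobile nucleoporin of that name and a Y complex subunit. NUP214, the partner of NUP88, had a peak in the RH4 and control lists, NUP93 of the inner ring in RH4 NFYB, both controls and sgCCAAT2b, and NUP62 of the central channel in both RH4 lists and sgCtrl1. NUP62CL was found in both RH4 lists and no RH30 list, NUP85 of the Y complex in RH4 NFYB and sgCtrl2, and NUP42 and the basket gene TPR in RH4 NFYB alone. No list held a peak at the other pore genes, NUP35, NUP43, NUP50, NUP54, NUP58, NUP107, NUP133, NUP153, NUP155, NUP160, NUP188, NUP205, NUP210 and NUP210L. By part of the pore, 3 of 7 Y complex genes, 1 of 5 inner ring, 1 of 3 channel, 0 of 1 membrane ring, 1 of 3 basket and 3 of 4 cytoplasmic side genes (RANBP2 included) had a peak in at least 1 list, where 21.7% of all protein-coding genes did, and most parts hold too few genes to stand apart from that share.

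NUP37, on the minus strand of chromosome 12 at 102073103 to 102120114, begins 69 bp from PARPBP. The NFYB peak of RH4 ran from 102120187 to 102120398 and the NFYC peak from 102120099 to 102120199, so the subunits' peaks met only at their edges and the NFYB peak lay inside PARPBP. The RH30 peaks ran from 102119987 to 102120175 (sgCtrl1), 102120037 to 102120233 (sgCtrl2), 102120078 to 102120230 (sgCCAAT2a) and 102120059 to 102120221 (sgCCAAT2b). The single core lay inside the peak in each list except RH4 NFYB. TPR had its only peak at 186375346 to 186375638 of chromosome 1, 293 bp wide, which took in the upstream core printed above and not the downstream one.

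Several of these peaks also lay near a neighbouring gene. Of the 20 members with a peak, 8 shared a peak with the window of another protein-coding gene, namely IPO4 (TM9SF1), RANBP10 (TSNAXIP1), NUP37 (PARPBP), NUP62 (IL4I1 and ATF5), NUP62CL (DNAAF6), NUP88 (RPAIN), NUP98 (PGAP2) and TPR (ODR4). Among the 8 members found in every list these were NUP37, NUP88 and NUP98, the 3 pore genes, whereas no peak of KPNA2, KPNA4, KPNB1, CSE1L or XPO1 was shared. The same shares over all genes with a peak were not computed. These counts are therefore a description and do not set the members apart. The NUP62 peaks were centred at -336, -486.5 and -507 bp from its start in RH4 NFYB, RH4 NFYC and sgCtrl1.

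No member that was counted had its nearest peak close to the limit of the window, but some members lay just beyond it. Of these nearest peaks, the farthest in any list was that of NUP62 in sgCtrl1, with its edge 413 bp from the gene end. The next was that of NUP62 in RH4 NFYC at 370 bp. The further NFYC peak inside KPNB1 lay farther from the gene end than both, but KPNB1 also had a nearer NFYC peak. Just outside the window were RANBP1 in sgCtrl2 at 1143 bp and TNPO2 in RH4 NFYB and sgCtrl1 at 1166 bp. With a window of 3000 bp, importins with a peak rose from 3 to 5 in RH4 NFYB, RH4 NFYC and sgCtrl1. For the 18 members with a peak and a RefSeq start, all peak centres lay within 507 bp of that start. The median centre in the 6 lists ranged from -126 bp (RH4 NFYB) to -39.0 bp (sgCCAAT2a), negative being upstream, where medians over all genes with a promoter entry ranged from -106 to -92.0 bp.

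**Figure D3:**
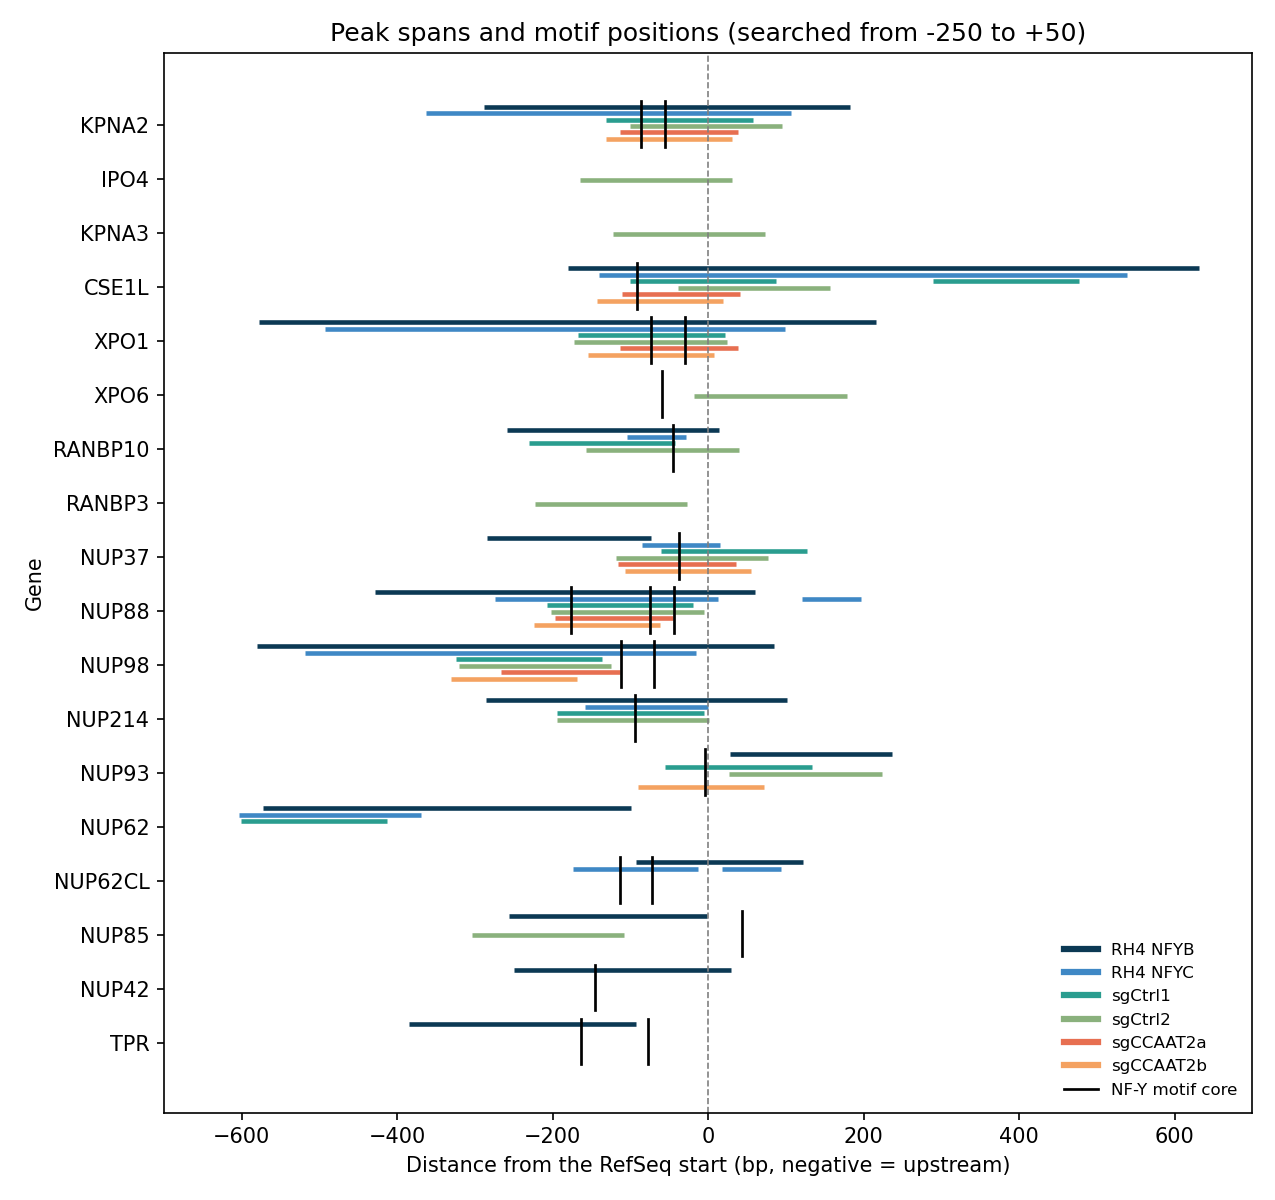
Spans of the peaks at the 18 members with a peak and a RefSeq start, by distance from that start in bp (negative is upstream). Coloured bars are peaks, 1 colour per list, and black lines are CCAAT cores on either strand, searched from 250 bases before to 50 after the start. Cores of KPNA2 and XPO1 lie inside all 6 peaks, and the NUP98 cores at the downstream edge of its RH30 peaks or beyond.

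The CCAAT core was more frequent in promoters of members with peaks. On either strand, CCAAT was found in 25 of the 51 member promoters (49.0%), where 36.4% of the 15842 protein-coding promoters held it. It was present in 6 of 6 members with a peak in all 6 lists, 8 of 12 with a peak in 1 to 5 lists and 11 of 33 with no peak. Over all protein-coding genes the shares in the same order were 85.1%, 53.4% and 28.0%, so the members followed the order of the whole set. The match with peaks was incomplete in both directions. IPO4, KPNA3, RANBP3 and NUP62 had a peak and no core in the window, and of these only NUP62 had a peak outside the sgCtrl2 list. The RH4 NFYC and sgCtrl1 peaks of NUP62 lay wholly upstream of the searched promoter, and its RH4 NFYB peak lay mostly so. The search therefore cannot tell whether the NUP62 peaks hold a core. In this direction the mismatch rests on the sgCtrl2 peaks of IPO4, KPNA3 and RANBP3. The genes with a core and no peak were IPO5, IPO9, KPNA6, TNPO1, TNPO2, XPO4, RANBP6, NUP107, NUP205, NUP210L and NUP35. Of the members with a core 56.0% had a peak in at least 1 list and of those without a core 15.4%, beside 40.8% and 13.1% over all protein-coding promoters.

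**Figure D4:**
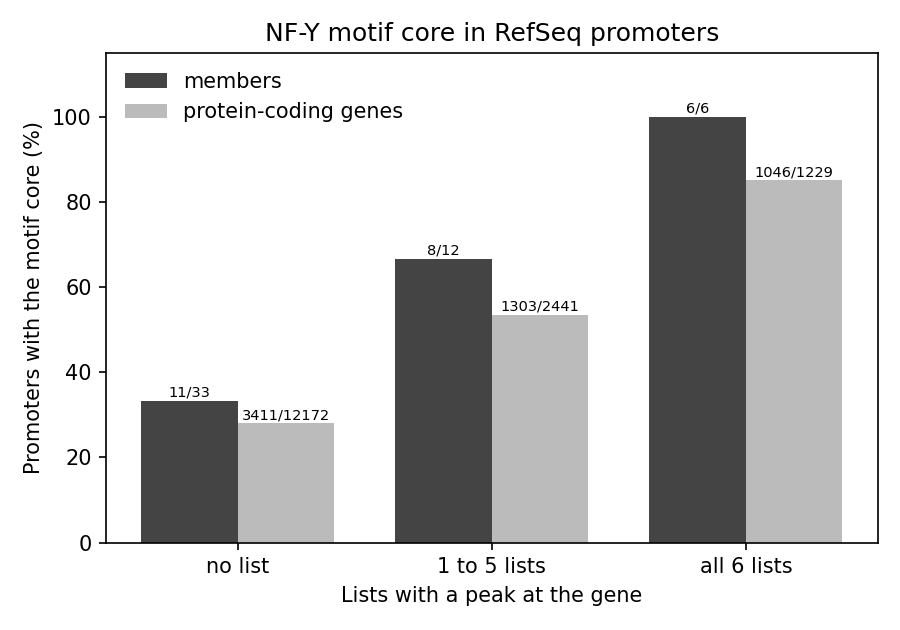
Percent of RefSeq promoters with CCAAT on either strand, for members (dark) and all protein-coding genes (light), by the number of lists with a peak at the gene. Counts stand above the bars. Members run from 11 of 33 with no peak to 6 of 6 with a peak in all 6 lists, and all genes from 3411 of 12172 to 1046 of 1229.

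Members with a peak in every list held more than 1 core at a share near that of all such genes. At least 2 cores were present in 4 of these 6 promoters (KPNA2, XPO1, NUP88 and NUP98), 66.7% beside 59.2% of all genes with a peak in all 6 lists. Among the 33 members with no peak, 2 had at least 2 cores, KPNA6 and NUP210L (6.06%, beside 6.44% of all genes without a peak). Neighbouring cores were 31 bp apart in KPNA2, 43 bp in XPO1, 42 bp in NUP98 and in NUP62CL, and 101 and 31 bp in NUP88. They were 86 bp apart in TPR, and 6 and 90 bp apart in KPNA6 and NUP210L. A spacing of 25 to 50 bp, a range chosen after these values were seen, held for 5 of 7 neighbouring pairs at members with a peak and 0 of 2 at members without. Over all protein-coding genes it held for 47.7% and 29.4% of pairs. Of the 11 cores at the members found in all lists, 10 were centred 30 to 120 bp upstream of the start, as were 52.8% of cores of all genes with a peak in every list. At the 33 members without a peak it was 4 of 13, beside 44.1% of cores of all genes without one. The range of 30 to 120 bp was not among the planned results, and the XPO1 core at -30 stands at its limit.

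The distance from peak to core differed between genes. Only cores in the promoter window were counted, although some peaks ran beyond it. Over the 55 pairs of a member and a list with both a core and a peak, the median distance from the peak centre to the nearest core was 43.0 bp, and 30 of 55 were within 50 bp. KPNA2, XPO1, NUP37, NUP88, NUP214 and NUP42 had most of their lists within 50 bp, CSE1L 1 of 6, and NUP98, NUP85, TPR and XPO6 none. The median was smallest in sgCCAAT2b (median 11.0 bp over 7 genes) and largest in RH4 NFYB (86.5 bp over 13), whose peaks are also the widest. At NUP98 the nearer of the cores found in the promoter window lay 78 to 155 bp from the peak centre in all 6 lists. No RH30 peak there held either of these cores whole, whereas both RH4 peaks held both. The sgCtrl1 peak ran from 3797683 to 3797871 of chromosome 11. All 6 NUP98 peaks ran upstream beyond the promoter window, where cores were not searched, so further cores under these peaks would have been missed.

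The NFYB and NFYC antibodies gave the same calls in RH4 except at pore genes. All 12 members with an NFYC peak had an NFYB peak. NUP42, NUP85, NUP93 and TPR had an NFYB peak alone, 4 of 16 members with an NFYB peak and the background over all genes with an NFYB peak was 10.3%. The NFYB peaks at these 4 genes were 280, 255, 210 and 293 bp wide, and the median over the 16 member peaks was 429.5 bp. In the other direction the count was 0 of 12, beside a background of 12.1% of genes with an NFYC peak. Of the 16 NFYB peaks at members 12 overlapped an NFYC peak (89.5% of all NFYB peaks at gene ends), and 6 did so when 50% of both peaks was required (55.4% of all). Of the 15 NFYC peaks at members 13 overlapped an NFYB peak (85.8% of all).

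The controls were then set beside the edited libraries. Of 11 members with a peak in both controls, 8 kept one in both edited lists, the 8 found everywhere, and NUP93 kept one with sgCCAAT2b alone. RANBP10 and NUP214 had one in neither edited list. This count of 2 of 11 stands beside 21.6% of all genes with a peak in both controls (489 of 2259), so the members' losses were near the background. The edited lists are the shortest although they had the most tags. With all RH30 lists limited to the length of the shortest, the count stayed at 2, and the RANBP10 and NUP214 peaks of both controls stood within that length. RANBP10 peaks lay at 67806603 to 67806791 of chromosome 16 with sgCtrl1 and 67806521 to 67806717 with sgCtrl2. NUP214 peaks lay at 131125392 to 131125580 of chromosome 9 with sgCtrl1 and 131125391 to 131125587 with sgCtrl2, with a core 6 and 3 bp from their centres. In file order the RANBP10 peak was entry 1637 of 4025 and 2223 of 6687 in the controls, and the NUP214 peak 1460 and 1170. Whether the order of entries is a ranking is not stated in the headers.

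The members with a peak in every list stood at different places in the files. In sgCtrl2 they were KPNB1 (entry 6), XPO1 (139), KPNA4 (264), CSE1L (469), NUP98 (580), NUP88 (586), KPNA2 (677) and NUP37 (1830) of 6687 entries. CSE1L stood at 59.0% of the list in sgCCAAT2a and 45.2% in sgCCAAT2b, later than the median of all peaks at gene ends (40.1% and 39.4%). Those medians include peaks called in 1 list alone, so they are no matched comparison for genes called in all. NUP37 was the last of the 8 in all 4 RH30 lists, at 64.2% in sgCtrl1, 27.4% in sgCtrl2, 94.1% in sgCCAAT2a and 78.7% in sgCCAAT2b. The 4 members listed by sgCtrl2 alone stood at entries 1942 (RANBP3), 2994 (IPO4), 3113 (XPO6) and 3710 (KPNA3), all later than the 8. They are 4 of 58 members, where 3.64% of all protein-coding genes had a peak in that list alone.

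**Figure D5:**
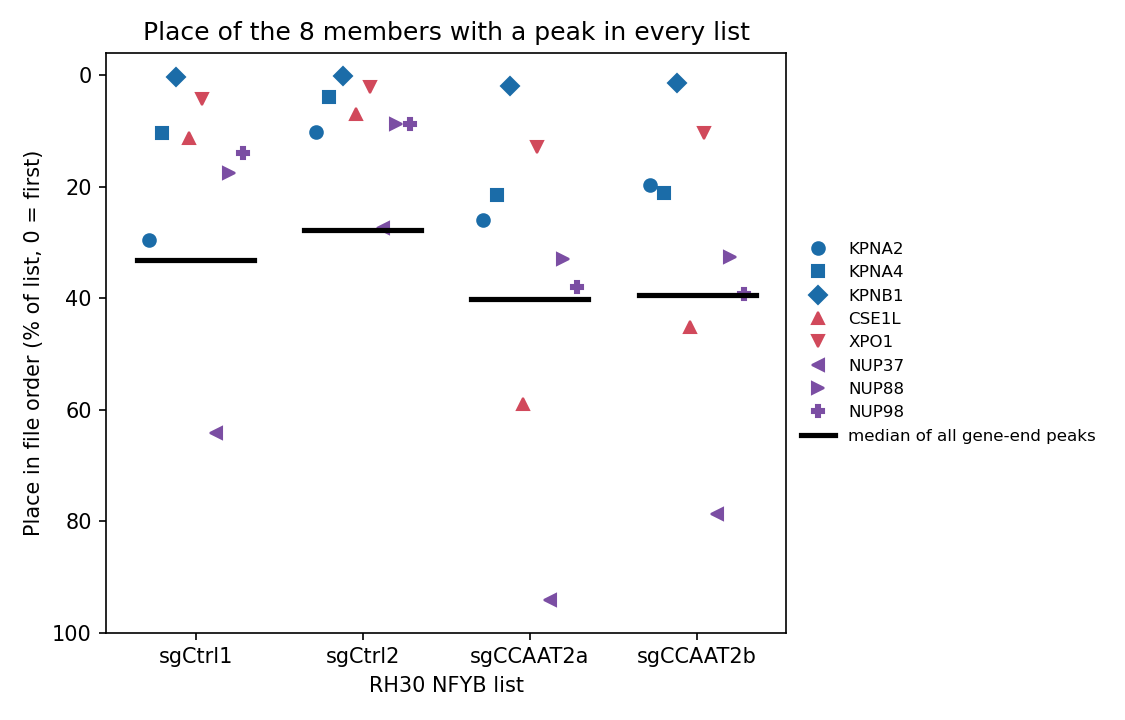
Place of the peak in file order, as percent of the list with 0 for the first entry, for the 8 members with a peak in every list, by RH30 list. Symbols are genes, and black bars mark the median of all peaks at gene ends. Lists differ in length, so places are read within a list. KPNB1 is first among the 8 and NUP37 last in each list. CSE1L is shown in sgCtrl1 by the earlier of its 2 peaks.

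The authors' deposited tables give a separate reading of the same libraries, listing the peaks of sgCtrl2 whose tags exceeded those of another library 2.5-fold or more at a Poisson p of at most 0.001. All 3 tables share the sgCtrl2 library and compare single libraries. In the authors' deposited tables, 2 of the 16 members with an sgCtrl2 peak were higher than in sgCtrl1, beside 11.7% of all genes with an sgCtrl2 peak. Over sgCCAAT2a the authors' deposited table listed 11 of 16 (background 56.6%), and over sgCCAAT2b 8 of 16 (background 50.9%). Only XPO6 and KPNA3 were in all 3 of the authors' deposited tables, beside 347 of 3364 genes with an sgCtrl2 peak. In the authors' deposited tables, KPNA4, IPO4, NUP85, RANBP3 and CSE1L were listed over each of the CCAAT guides but not over sgCtrl1, 5 of 16, beside 34.1% of all genes with an sgCtrl2 peak. KPNA4 and CSE1L were thus listed in the authors' deposited tables and present in the peak lists of both CCAAT guides.

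KPNA2, NUP88, NUP98 and RANBP10 were in none of the authors' deposited tables, 4 of 16, beside 36.6% of all genes with an sgCtrl2 peak. For RANBP10 this stands beside its absence from both edited peak lists. KPNB1, XPO1, NUP37 and NUP214 were listed over sgCCAAT2a alone in the authors' deposited tables, and NUP93 over sgCCAAT2b alone. NUP214 was thus absent from the sgCCAAT2b peak list without being listed as higher in sgCtrl2 than in that library.

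Further genes of the pathway outside the naming rule were followed for context. Of 33 such genes, 13 had a peak in at least 1 list (39.4%, background 21.7%), with 7 to 11 per list, and 4 had one in all 6 (12.1%, background 7.03%). NXT1, a cofactor of messenger RNA export, and the inner nuclear membrane genes EMD, LBR and SUN2 had a peak in all 6. LMNB1 (a lamin), TMPO and SUN1 (inner nuclear membrane), and DDX19B, a helicase of messenger RNA export, had one in 5, ALYREF in 4, SEH1L in 3, and NXF1, AAAS and BANF1 in 1. The 20 with no peak in any list were RCC1, the exchange factor of Ran, NUTF2, which returns Ran to the nucleus, NXT2, GLE1, DDX19A, RAE1, NDC1, POM121, POM121C, SEC13, AHCTF1, PHAX, THOC1, THOC2, THOC3, THOC5, THOC6, THOC7, LMNA and LMNB2.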

How the data were processed

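The analysis used 6 NF-Y peak lists and the authors' 3 differential tables. The values deposited by the authors are peak positions in bp on hg38, without heights (the score column is constant). Each RH30 library was called separately with HOMER, per the file headers, requiring 2-fold over an input directory and 4-fold over the surrounding 10000 bp, and the differential tables come from HOMER as well. For the RH4 lists no caller is named in those headers. Bowtie2, Trimmomatic, MACS2 and HOMER are among the tools in the submitters' processing notes.

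Peaks were read as BED and positions written from 1. Genes and promoters came from RefSeq, GRCh38.p14, leaving out 19 mitochondrial or unplaced genes. Members and lists were chosen with earlier results of these data known. All members were named. Positions were given for KPNB1, XPO1, RAN, TPR, CSE1L, the first member of each role found in all lists, and members differing between controls and edited lists. Exact intervals used SciPy 1.17.1, and the overlap code was tested on simulated data against bedtools 2.31.1. Alternatives were windows of 500 and 3000 bp, peak centres, the start alone, shorter lists, the widest or first entries of each list, a 50% overlap and other motif forms.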

Additional observations from a re-analysis of the deposited data

How the results depend on the processing

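With windows of 500 bp and with peak centres all 36 and 33 counts compared stayed within 1.5 times. With 3000 bp, importins with a peak rose to 5 each in RH4 NFYB, RH4 NFYC and sgCtrl1. Using the start alone, importins fell to 1 in RH4 NFYB, RH4 NFYC, sgCtrl1, sgCCAAT2a and sgCCAAT2b and to 3 in sgCtrl2, because KPNA4 and KPNB1 have no promoter entry. With RH30 lists cut to the length of the shortest, importins were 3 in sgCtrl2. A further setting kept only the widest RH4 entries and the first RH30 entries, although neither width nor file order is a stated ranking of strength. With it, RH4 NFYB held 8 members, with 3 pore genes and 0 Ran cycle genes, and RH4 NFYC 3 pore genes and 0 Ran cycle genes. In the same setting, sgCCAAT2a held 1 exportin and sgCCAAT2b 2 pore genes. The count of members with a peak in all 6 lists ran from 6 to 8, and in no list from 33 to 42. When only sgCtrl2 peaks that overlap an sgCtrl1 peak were kept, 0 members were listed in the authors' deposited tables over sgCtrl1, 6 over sgCCAAT2a and 3 over sgCCAAT2b. CCAATC was found in 5 members with no peak and 7 with one, and CCAATCG, chosen after seeing the data, in 3 with no peak, 3 with one and 3 with a peak in all lists. With 50% of both peaks required, 6 NFYB and 6 NFYC member peaks were shared. Of 219 comparisons with an alternative, 192 stayed within 1.5 times, 3 rose and 24 fell beyond it. No paired analysis was possible because each group has 1 library.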
